A study of Mus musculus with 18 samples.

Results

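Primary mouse hepatocytes given a scrambled REVERSIR and no siRNA were compared with hepatocytes given PBS, the vehicle, by RNA sequencing. The members were chosen by their titles: 3 libraries of scrambled REVERSIR and 3 of PBS, 6 of the 18 libraries of the series. The cells of all 6 groups in the series were plateable cryopreserved hepatocytes from male CD-1 mice, an outbred stock, bought from one supplier. The other 4 groups, with 3 libraries each, received a TTR REVERSIR, an siRNA against Ttr (transthyretin), that siRNA plus the scrambled REVERSIR, or that siRNA plus the TTR REVERSIR. Dose, time and delivery are not stated in the labels, nor is it stated there that same-group libraries were made from different wells, cultures or mice. P-values therefore measure only the spread between these libraries, which may be technical.

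A REVERSIR is a synthetic single-stranded oligonucleotide that pairs with an siRNA's guide strand and, once bound, frees the target mRNA from silencing. A scrambled sequence keeps the kind of molecule and removes the match, so that its comparison with PBS asks what such an oligonucleotide does to hepatocyte mRNAs when there is no siRNA to bind. Oligonucleotides conjugated to N-acetylgalactosamine enter hepatocytes through the asialoglycoprotein receptor and pass through endosomes and lysosomes, where Toll-like receptors can sense nucleic acids; whether this oligonucleotide carries a conjugate is not stated in the labels. Chemically modified oligonucleotides are also known to bind cellular proteins, among them chaperones and paraspeckle proteins, and genes of these routes were listed and followed here.

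The scrambled REVERSIR libraries were the least deeply sequenced group, with total counts of 2557229, 2896366 and 1755819 for replicates 1 to 3, against 6753263, 5862972 and 3871163 for PBS. The other 15 libraries of the series held 2217585 to 10145265 counts. Mitochondrial ribosomal RNA took 24.3% and 24.1% of the counts in PBS replicates 1 and 2, against 5.45% in PBS replicate 3, 4.06 to 5.18% in scrambled REVERSIR and 1.69 to 9.56% over the 16 libraries other than those 2 PBS libraries. Thus 2 of the 3 control libraries stood apart from every treated library and from the third control. For each called gene the difference is therefore also given against PBS replicate 3 alone, as a value with no test. Fits without these libraries, or with the mitochondrial rRNA share as a covariate, are given below. Why those 2 libraries stood apart was not tested. Hepatocyte markers, a list of 15 genes, all passed the filter on low counts. They summed to 54026 to 56050 CPM (counts scaled to a common library total after TMM) in scrambled REVERSIR. In PBS they summed to 54882 to 65522 CPM, with PBS replicate 3 the lowest control. In the edgeR test given below, 5 of the 15 were lower and 0 higher at an unadjusted p under 0.05, where 14.7% of all genes reached it. Their median log2 difference was −0.12, and −0.13 without PBS replicates 1 and 2. Of 15 Kupffer cell and macrophage markers 6 passed the filter and the list summed to 379 to 424 CPM in scrambled REVERSIR and 393 to 454 in PBS. Of 14 endothelial markers 7 passed, with sums of 52.6 to 69.2 and 59.0 to 67.4 CPM, and of 14 stellate cell markers 7 passed, with sums of 149 to 173 and 167 to 179 CPM. Of 11 cholangiocyte markers 6 passed, with sums of 170 to 211 and 177 to 192 CPM. Of 14 blood cell markers 1 passed, with sums of 19.1 to 23.5 and 19.4 to 20.9 CPM. Among those with no count in either group were Cd3g, Cd79a, Cd79b, Ms4a1, Nkg7, Gzma, Hba-a1 and Hbb-b1. The macrophage gene Aif1 had none either. In such bulk libraries fewer cells of a type and less RNA per cell cannot be told apart.

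**Figure D1:**
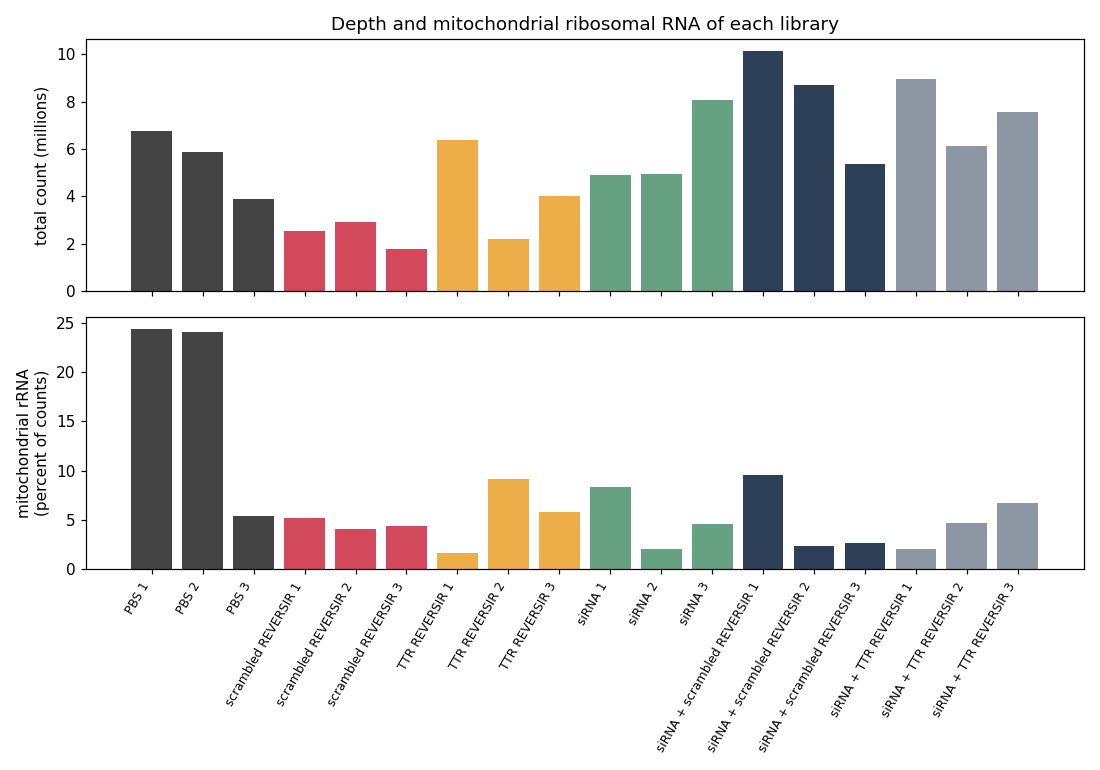
Total count (top) and the percent of counts in the 2 mitochondrial ribosomal RNA genes (bottom) of each of the 18 libraries, one bar per library, coloured by group. The scrambled REVERSIR bars are the shortest group at the top (1755819 to 2896366 counts), and PBS replicates 1 and 2 stand near 24% at the bottom while the other 16 libraries lie between 1.69 and 9.56%.

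Ttr, the target of the siRNA, was measured first. Its CPM was 1135, 1064 and 1154 with scrambled REVERSIR and 1034, 1080 and 1220 with PBS. The groups overlapped, and scrambled REVERSIR stood at 101% ± 4.29 (SD, n = 3) of the PBS mean, with means of 1118 ± 47.6 and 1111 ± 96.8 CPM. In a two-sided exact permutation test p was 1, where 0.1 is the smallest p that 3 libraries against 3 allow. On the log2 scale the 95% interval of the difference ran from −0.18 to 0.19. With library totals in place of TMM, which move the median of all genes by 0.29 on the log2 scale, Ttr stood at 120% ± 5.87 (SD, n = 3) of PBS (exact permutation p = 0.4).

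Across the transcriptome, 47 of 11153 genes tested passed an adjusted p of 0.05 (edgeR quasi-likelihood test, Benjamini-Hochberg), which is 0.421% of them. Of these, 13 rose (0.117% of all genes tested) and 34 fell (0.305%). The median size of the 47 differences was 0.52 on the log2 scale, and 2 genes, the pseudogene Gm13436 and Rprd1a, changed by 2-fold or more. At an unadjusted p under 0.05 there were 1636 genes (14.7%), where 558 would be reached by chance if no gene differed. The libraries of the 2 groups did not overlap for 41 of the 47 genes, against 1615 of all genes (14.5%). The exceptions were Actg1, Serpina1c, Ndufv2, Gng5, Mup9 and Mup17, where PBS replicate 3 lay among the scrambled REVERSIR libraries.

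The number of calls depended on single libraries, the 2 controls that stood apart among them. With PBS replicate 3 as the only control, edgeR called 0 genes, all 47 kept their direction, and their median size fell to 0.26. Leaving out PBS replicate 1 or 2 alone also gave 0 calls and leaving out PBS replicate 3 gave 745. Leaving out scrambled REVERSIR replicate 2 or 3 gave 0 calls, and leaving out replicate 1 gave 46, of which 25 were among the 47. With the mitochondrial rRNA share as a covariate edgeR called 0 genes, and the median size of the 47 was 0.34. With library totals in place of TMM the median of all genes moved to 0.29 and 1580 genes were called, 1564 of them higher, so directions below are relative to the bulk of the genes. All 47 kept their direction on that scale. Counts were also simulated for this comparison over 11153 genes. The test recovered 37% of genes changed by 0.5 and 79% of genes changed by 1 on the log2 scale. The changed genes had a mean log2 CPM above 1, and PBS replicates 1 and 2 were not set apart in the simulation. These shares may therefore not hold for the real libraries.

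PBS replicate 3 lay nearer in log2 CPM to the scrambled REVERSIR mean than to PBS replicates 1 and 2 for 24 of the 47 genes, 3 of the 13 that rose and 21 of the 34 that fell. Over all genes tested the share was 59.4%. The 12 genes whose 3 scrambled REVERSIR libraries lay outside all 15 other libraries of the series lie outside whichever control is used. They were Serpina7, Mia2, Hspa5, Srsf1 and Tfrc, above every other library, and Ndufa4l2, Wrnip1, Ppif, Gnmt, Rprd1a, Smox and Ces1e, below every other library. Over all genes tested, 103 (0.924%) lay outside in this way, 61 above and 42 below.

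**Figure D2:**
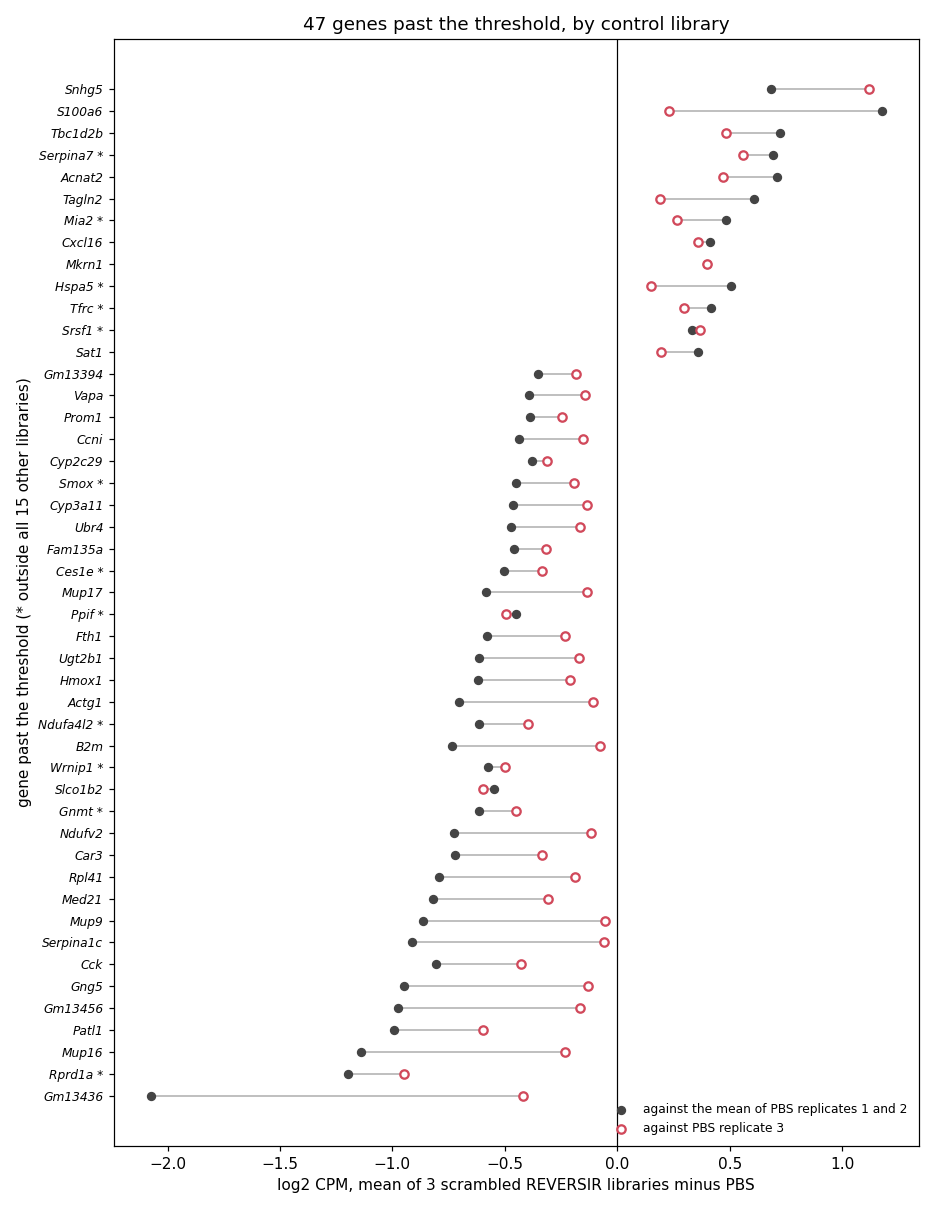
Difference in log2 CPM between the mean of the 3 scrambled REVERSIR libraries and, for each of the 47 genes past the threshold, the mean of PBS replicates 1 and 2 (filled) or PBS replicate 3 alone (open); asterisks mark genes outside all 15 other libraries. Every open point is on the same side of 0 as its filled point, and for Serpina1c, B2m and Mup9 the open point lies at −0.06, −0.08 and −0.05.

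Among the genes that rose, Serpina7 had the smallest p. It encodes thyroxine-binding globulin, a serpin that the liver secretes and that carries thyroid hormone in blood, as transthyretin does. Serpina7 (ENSMUSG00000031271; NCBIM37 chromosome X, 135613796 to 135619775, minus strand) was at 263, 278 and 282 CPM with scrambled REVERSIR and at 178, 161 and 186 CPM with PBS. All 3 treated libraries were above all 3 controls, and above the 150 to 262 CPM of the 12 other treated libraries, although the highest of those, siRNA replicate 3 at 262 CPM, lay next to the lowest scrambled REVERSIR library. The rise was 1.57-fold (log2 0.65 ± 0.11 SE, adjusted p = 0.0208). It was 0.56 against PBS replicate 3 and 0.69 against replicates 1 and 2, and 0.60 to 0.69 as each library was left out in turn. Mia2 (ENSMUSG00000035349; NCBIM37 chromosome 12, 60196786 to 60210117, plus strand), which encodes a protein of the endoplasmic reticulum (ER) exit sites involved in the export of large cargo, was at 214, 209 and 207 CPM against 154, 147 and 175. The 12 other treated libraries held 163 to 189 CPM, so that scrambled REVERSIR was above every other library (log2 0.41 ± 0.07, adjusted p = 0.0208; 0.26 against PBS replicate 3).

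Upstream sequence of both genes is shown because they lead the list and both are liver genes with a stretch of like letters close to the start. The 30-base stretches below are from RefSeq promoter windows on GRCm38.p6, 5′ to 3′ on the gene's strand, and capitals mark the letters GTTAATNNNTAA, which resemble the binding site of the liver factor HNF1. They start 57 bases before the annotated start of Serpina7 (chrX:139085273-139085302, minus strand) and 33 bases before that of Mia2 (chr12:59095549-59095578, plus strand).
Serpina7: catggcatgGTTAATTTGTAAccaggaatg
Mia2: aaaacccctGTTAATTATTAAgcccttcgg
The letters were chosen after these sequences were read. On either strand they occur within 250 bases before the start in 101 of 32851 windows (0.307%) and in no other gene of the 38 among the 47 that have a window. A match of letters is a description and was not tested as a site. In the list of 21 hepatocyte transcription factors tested, 0 passed the test, 1 was higher and 3 lower at an unadjusted p under 0.05, a share to be read against 14.7% of all genes, and the median was −0.05.

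Hspa5 (ENSMUSG00000026864; NCBIM37 chromosome 2, 34627490 to 34632051, plus strand) encodes BiP, the main chaperone of the ER lumen and a marker of the unfolded protein response. Its CPM was 1407, 1511 and 1503 with scrambled REVERSIR against 1076, 1003 and 1329 with PBS. No library of any other group reached the lowest scrambled REVERSIR value, the 12 other treated libraries holding 1207 to 1345 CPM, and PBS replicate 3 lay within that range. The rise was 1.30-fold (log2 0.38 ± 0.08, adjusted p = 0.047), 0.50 against PBS replicates 1 and 2 and 0.15 against replicate 3. Of 29 ER chaperone and unfolded protein response genes tested, Hspa5 was the one that passed; 4 were higher and 2 lower at an unadjusted p under 0.05 (14.7% of all genes reached it in either direction) and the median was 0.05, against 0.00 over all genes. Calr, the lectin chaperone calreticulin, was next at 0.27 ± 0.07 (adjusted p = 0.0898), with 728, 715 and 740 CPM against 552, 565 and 690. The lumenal disulfide isomerase gene Pdia3 had the opposite sign at −0.56 ± 0.18 (adjusted p = 0.137), with 168, 187 and 181 CPM against 294, 304 and 191. Derl3 was under the filter on low counts, with 5 counts in scrambled REVERSIR and 0 in PBS.

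The ER stress element, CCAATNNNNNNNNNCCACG, is the textbook promoter sequence of this response, and it is shown for the 2 genes that hold it among the 38 of the 47 with a promoter window. Searched on both strands in the 250 bases before the start, it was in 37 of 32851 windows (0.113%). Capitals mark it in 30-base stretches from RefSeq on GRCm38.p6, and it begins 65 bases before the start of Hspa5 (chr2:34772020-34772049, plus strand) and 84 bases before that of Acnat2 (chr4:49408211-49408240, minus strand).
Hspa5: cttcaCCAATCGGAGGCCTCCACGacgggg
Acnat2: ctcttCCAATATTTTTTTTCCACGattgac
Acnat2, an acyltransferase gene of the family of the bile acid conjugating enzyme Baat, was at 24.6, 30.8 and 33.7 CPM with scrambled REVERSIR against 19.4, 16.4 and 21.2 with PBS. The groups did not overlap (log2 0.63 ± 0.14, adjusted p = 0.0472; 0.47 against PBS replicate 3), but the 12 other treated libraries reached into the scrambled REVERSIR values.

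Tagln2, which encodes the actin-binding protein transgelin-2, was at 248, 250 and 251 CPM against 168, 159 and 219 in PBS (log2 0.46 ± 0.09, adjusted p = 0.0261; 0.19 against PBS replicate 3). The 12 other treated libraries held 207 to 264 CPM, so the low values were those of PBS replicates 1 and 2. S100a6, which encodes a small calcium-binding protein, had the same pattern, with 68.5, 73.5 and 58.5 CPM against 32.1, 26.6 and 56.7 (log2 0.83 ± 0.19, adjusted p = 0.047; 0.23 against PBS replicate 3). Both belong to a list of 29 tested genes of cytoskeleton and of the loss of hepatocyte identity in plated cells, in which 2 rose and 1, the cytoplasmic actin gene Actg1, fell. Actg1 was at 332, 262 and 263 CPM against 460, 465 and 306, with overlap (log2 −0.52 ± 0.12), and differed by −0.11 from PBS replicate 3 and by −0.15 with the mitochondrial rRNA covariate. The list median was 0.08, and 0.00 without PBS replicates 1 and 2. Vim, vimentin, did not pass at 0.34 ± 0.09 (adjusted p = 0.0861).

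Iron handling held 1 gene that rose and 2 that fell among 30 tested, where 0.421% of all genes passed. At an unadjusted p under 0.05, 6 of the 30 were higher and 5 lower, where 14.7% of all genes reached it in either direction. Tfrc (ENSMUSG00000022797; NCBIM37 chromosome 16, 32609006 to 32632880, plus strand), the transferrin receptor through which cells take up iron, was at 151, 159 and 169 CPM against 129, 110 and 129, above every other library of the series (log2 0.37 ± 0.08, adjusted p = 0.0477). It differed by 0.30 from PBS replicate 3 and by 0.41 from replicates 1 and 2. Fth1, the ferritin heavy chain that stores iron, was at 1314, 1311 and 1399 CPM against 1993, 2018 and 1575 (log2 −0.47 ± 0.11, adjusted p = 0.047; −0.23 against PBS replicate 3). Hmox1, the heme-degrading oxygenase, was at 206, 169 and 196 CPM against 282, 303 and 220 (log2 −0.50 ± 0.10, adjusted p = 0.0283; −0.21 against PBS replicate 3). For Fth1 and Hmox1 the groups did not overlap, but the 12 other treated libraries held 1298 to 1697 and 192 to 259 CPM and reached into the scrambled REVERSIR values. Ireb2, which encodes an iron regulatory protein that binds the mRNAs of Tfrc and Fth1, did not pass at −0.68 ± 0.17 (adjusted p = 0.073). Trf, transferrin, was at −0.39 ± 0.11 (adjusted p = 0.106). The list median was 0.06, and 0.07 without PBS replicates 1 and 2.

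Srsf1 (ENSMUSG00000018379; NCBIM37 chromosome 11, 87860875 to 87867257, plus strand), an SR protein that selects splice sites, was at 188, 174 and 176 CPM against 154, 131 and 139 and above every other library (log2 0.34 ± 0.08, adjusted p = 0.047). This difference was as large against PBS replicate 3 (0.37) as against replicates 1 and 2 (0.33). It was the one gene of 20 SR splicing factors and their kinases to pass. At an unadjusted p under 0.05, 6 were higher and 1 lower, where 14.7% of all genes reached it in either direction. For 8 of the 20 the scrambled REVERSIR libraries lay above all PBS libraries and for 1 below, where 814 and 801 of all 11153 genes did. The list median was 0.19 (0.15 without PBS replicates 1 and 2), and with all controls it was the highest among the 25 lists other than cell markers. Srsf5 and Srsf3 were at 0.29 ± 0.08 and 0.35 ± 0.09 (adjusted p = 0.0861 and 0.0863) and did not pass. With the siRNA present, where the libraries are different ones, the list median was 0.02. Snhg5, a host gene of small nucleolar RNAs, rose by 0.87 ± 0.19 (adjusted p = 0.047), with 13.6, 24.3 and 19.1 CPM against 11.3, 11.5 and 8.32, and by 1.12 against PBS replicate 3. Its 7 other tested list members did not pass.

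Patl1, a scaffold of the mRNA decapping complex, fell by 0.87 on the log2 scale (SE 0.17, adjusted p = 0.0261). Its CPM was 20.8, 29.7 and 27.5 against 53.6, 49.6 and 39.1. It differed by −0.60 from PBS replicate 3. The 3 scrambled REVERSIR libraries were below all controls, and the 12 other treated libraries held 23.7 to 38.7 CPM, below every PBS library. It was the one of 32 decapping and deadenylation genes to pass, with a list median of 0.00. Rpl41, of the large ribosomal subunit, was at 280, 231 and 257 CPM against 470, 416 and 291 (log2 −0.62 ± 0.12, adjusted p = 0.0261), and differed by −0.19 from PBS replicate 3. It was the one of 79 ribosomal protein genes tested to pass, and its identifier has no position in the annotation used. At an unadjusted p under 0.05, 22 of the 79 were higher and 11, Rpl41 among them, were lower. Over all genes 14.7% reached that p in either direction. The list median was 0.05, and −0.02 without PBS replicates 1 and 2.

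Car3 (ENSMUSG00000027559; NCBIM37 chromosome 3, 14863538 to 14872351, plus strand), a carbonic anhydrase abundant in rodent liver, had the smallest p among the genes that fell. It was at 106, 117 and 107 CPM against 171, 191 and 138 in PBS (log2 −0.60 ± 0.10, adjusted p = 0.0208; −0.33 against PBS replicate 3), and the 12 other treated libraries held 100 to 141 CPM. Scrambled REVERSIR was therefore within the range of the other treatments. Against the TTR REVERSIR its difference was 0.09, and TTR REVERSIR differed from the same PBS libraries by −0.69. Med21, a subunit of the Mediator complex, was at 58.3, 58.1 and 43.3 CPM against 93.6, 93.3 and 65.3 (log2 −0.64 ± 0.12, adjusted p = 0.0261). Fam135a was at 74.2, 74.8 and 75.3 CPM against 109, 97.6 and 93.3 (log2 −0.42 ± 0.08, adjusted p = 0.0261). The 12 other treated libraries held 53.1 to 63.3 CPM of Med21 and 71.2 to 91.0 CPM of Fam135a, overlapping scrambled REVERSIR in both. Against PBS replicate 3 the differences were −0.31 and −0.32.

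Gnmt and Ndufa4l2 fell below every other library. Gnmt (ENSMUSG00000002769; NCBIM37 chromosome 17, 46862613 to 46866117, minus strand), glycine N-methyltransferase, which disposes of excess methyl groups from S-adenosylmethionine in liver, was at 31.8, 30.1 and 29.2 CPM against 44.2, 49.1 and 41.6. The 12 other treated libraries held 35.0 to 42.7 CPM. The difference was −0.56 ± 0.11 on the log2 scale (adjusted p = 0.0283) and −0.45 against PBS replicate 3. It was the one gene of 25 of methionine and one-carbon metabolism to pass, and the list median was 0.05. The folate cycle genes Shmt1 (0.49 ± 0.12, adjusted p = 0.0653) and Mthfd1 (0.37 ± 0.10, adjusted p = 0.0783) did not pass and had the opposite sign. Ndufa4l2 (ENSMUSG00000040280; NCBIM37 chromosome 10, 126951995 to 126954208, plus strand), a hypoxia-inducible mitochondrial protein related to a respiratory chain subunit, was at 49.6, 46.1 and 43.9 CPM against 67.4, 75.7 and 61.3, with 50.2 to 64.2 CPM in the 12 other treated libraries (log2 −0.55 ± 0.10, adjusted p = 0.0261; −0.40 against PBS replicate 3).

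The other 5 genes below every other library were Rprd1a, Wrnip1, Ppif, Smox and Ces1e. Rprd1a, a regulator of RNA polymerase II phosphorylation, was at 4.92, 7.18 and 5.62 CPM against 13.5, 14.2 and 11.6 (log2 −1.13 ± 0.23, adjusted p = 0.0311; −0.95 against PBS replicate 3). Its lowest other treated library was at 7.47 CPM. Wrnip1, an ATPase that interacts with the Werner helicase, was at 28.4, 22.9 and 24.2 CPM against 39.3, 35.8 and 35.5, with 31.5 to 38.4 CPM in the 12 other treated libraries (log2 −0.55 ± 0.12, adjusted p = 0.036). Ppif, the mitochondrial cyclophilin D of the permeability transition pore, was at 34.8, 33.1 and 31.5 CPM against 44.8, 46.0 and 46.9 (log2 −0.46 ± 0.10, adjusted p = 0.047). For Wrnip1 and Ppif the 3 controls were close to each other, and the differences against PBS replicate 3 alone were −0.50 and −0.50. Smox, spermine oxidase, was at 108, 104 and 92.2 CPM against 137, 140 and 116 (log2 −0.36 ± 0.08), and Ces1e, a liver carboxylesterase, at 46.2, 42.4 and 36.5 CPM against 57.7, 60.4 and 52.4 (log2 −0.43 ± 0.09). Against PBS replicate 3 they differed by −0.19 and −0.33. Sat1, the acetyltransferase that starts polyamine breakdown, rose by 0.30 ± 0.07 (adjusted p = 0.047), with 560, 595 and 618 CPM against 489, 434 and 517, and by 0.19 against PBS replicate 3.

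**Figure D3:**
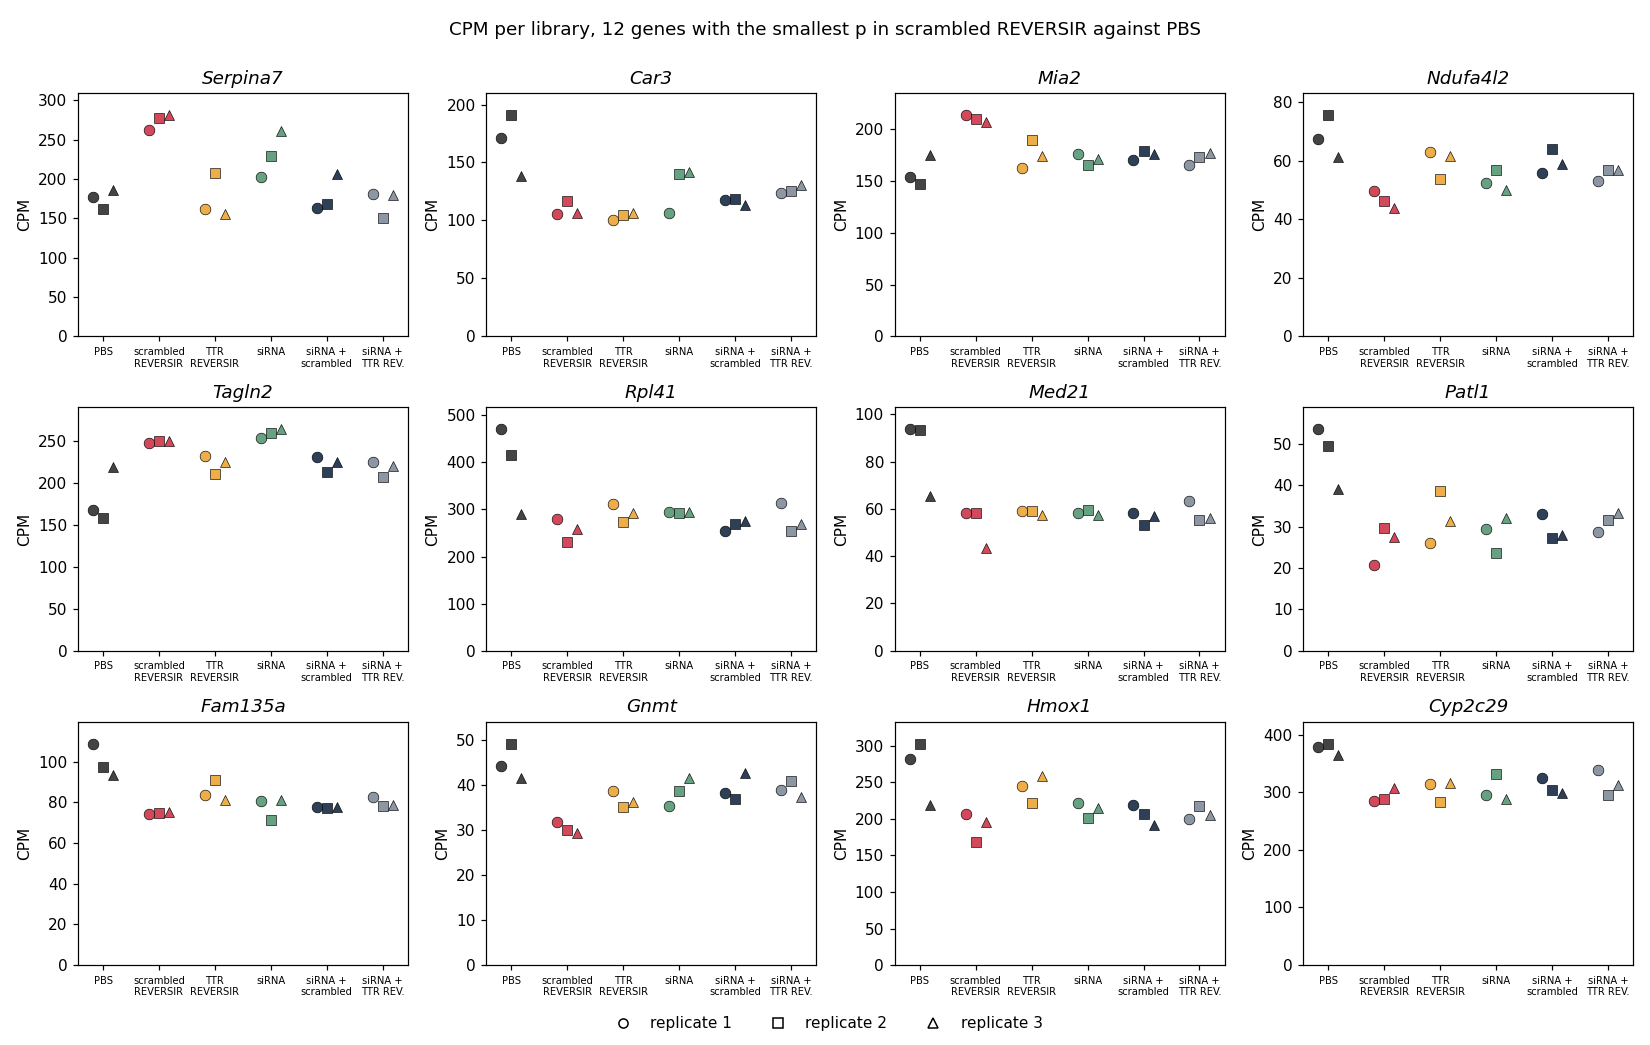
CPM (linear axis from 0) in each of the 18 libraries for the 12 genes with the smallest p and a mean log2 CPM of at least 1; colours mark the 6 groups and point shapes the replicate numbers. For Serpina7, Mia2, Ndufa4l2 and Gnmt the 3 scrambled REVERSIR points lie outside all others, while for Car3, Med21 and Rpl41 the PBS replicates 1 and 2 lie above the rest.

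Drug-metabolising enzymes and transporters gave 3 listed genes that fell. Cyp2c29, a cytochrome P450 induced by xenobiotics, was at 285, 287 and 307 CPM against 378, 384 and 364 (log2 −0.36 ± 0.07, adjusted p = 0.0283; −0.31 against PBS replicate 3). Its 3 controls were close to each other and above all 15 treated libraries, of which the 12 other ones held 283 to 339 CPM. Cyp3a11, the main inducible P450 of the mouse liver, was at 1180, 1224 and 1250 CPM against 1737, 1629 and 1336 (log2 −0.36 ± 0.08, adjusted p = 0.0382; −0.13 against PBS replicate 3). These were 2 of 29 tested drug-metabolising genes, with a list median of −0.01. At an unadjusted p under 0.05, 2 of the 29 were higher and 9 lower, where 14.7% of all genes reached it in either direction. Slco1b2, the hepatic uptake carrier of bile acids and drugs, was at 26.5, 29.4 and 26.4 CPM against 42.6, 37.8 and 41.6 (log2 −0.56 ± 0.11, adjusted p = 0.0314). It differed by −0.60 from PBS replicate 3 alone, though the lowest of the 12 other treated libraries was at 26.3 CPM. Of 21 solute carrier and bile acid genes, Acnat2 rose and Slco1b2 fell. Ugt2b1, a glucuronosyltransferase outside these lists, fell by 0.48 on the log2 scale (SE 0.10; −0.17 against PBS replicate 3).

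Serpina1c, a mouse alpha-1-antitrypsin gene with near-identical neighbours, was at 885, 796 and 847 CPM against 1595, 1576 and 877 (log2 −0.68 ± 0.13, adjusted p = 0.0283; −0.06 against PBS replicate 3). Of 35 secreted protein genes, Serpina7 rose and Serpina1c fell, and the median was −0.10, and 0.00 without PBS replicates 1 and 2. At an unadjusted p under 0.05, 1 of the 35 was higher and 9 were lower, where 14.7% of all genes reached it in either direction. Of 19 major urinary protein genes Mup9, Mup16 and Mup17 fell, by 0.65, 0.92 and 0.45 on the log2 scale. They stood at −0.05, −0.23 and −0.13 against PBS replicate 3. At an unadjusted p under 0.05, 1 of the 19 was higher and 8 were lower. The family median was −0.22, −0.08 without PBS replicates 1 and 2, and 0.07 with library totals, where the direction flips while the median of all genes moves to 0.29. These genes are near-identical copies, and how reads were shared among them is not given. B2m, the light chain of class I histocompatibility molecules, was at 1369, 1329 and 1331 CPM against 2329, 2142 and 1415 (log2 −0.55 ± 0.11, adjusted p = 0.0283), and at −0.08 against PBS replicate 3. Fabp1, the liver fatty acid carrier, was at −0.52 ± 0.12 (adjusted p = 0.058), and 0 of 23 fatty acid oxidation genes passed.

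The remaining called genes belong to none of these lists or to lists given below. Tbc1d2b, a Rab GTPase regulator (0.67), Mkrn1, a ubiquitin ligase (0.40), and Cxcl16, a chemokine and scavenger receptor (0.40), rose. Mkrn1 was at 106, 105 and 105 CPM against 76.6, 82.7 and 79.7. Against PBS replicate 3 the 3 genes were at 0.49, 0.40 and 0.36. Among those that fell were Gng5, a G protein subunit (−0.74), Ndufv2, of respiratory complex I (−0.57), Cck, cholecystokinin (−0.71), Vapa, a tether of the ER (−0.32), Prom1, prominin (−0.34), Ccni, a cyclin (−0.35), and Ubr4, a ubiquitin ligase (−0.38). Against PBS replicate 3 these 7 genes were at −0.13, −0.12, −0.43, −0.15, −0.25, −0.15 and −0.17 in the same order. The 3 others are annotated as pseudogenes, Gm13436 (−1.79), Gm13456 (−0.78) and Gm13394 (−0.30), whose reads can come from their parent genes. Gm13436 was at 5.30, 5.81 and 5.62 CPM against 23.0, 26.4 and 7.56, and differed by −0.42 from PBS replicate 3, as Gm13456 and Gm13394 did by −0.17 and −0.19. Of the 46 called genes with an annotation entry, 12 share exon bases with another gene and 10 of these, among them Ndufa4l2, Med21, Srsf1, Tbc1d2b, Wrnip1 and Acnat2, with a gene on the opposite strand. The strand of counting is not given, so reads of the partners cannot be told apart.

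No gene of the routes by which oligonucleotides enter and are sensed passed. Of 25 asialoglycoprotein receptor and endolysosomal genes, 0 passed, 1 was higher and 3 lower at an unadjusted p under 0.05, and the median was 0.00. Asgr1, the major receptor subunit, was at 130, 120 and 124 CPM against 117, 126 and 128 (log2 0.01 ± 0.10, 95% interval −0.19 to 0.22). Of 27 nucleic acid sensing and interferon genes tested, 0 passed and 1 was higher at an unadjusted p under 0.05. For both lists these counts are to be read against 14.7% of all genes in either direction. For 4 of the 27 the scrambled REVERSIR libraries lay above all PBS libraries and for 0 below, where 814 and 801 of all 11153 genes did. The median of these 27 was 0.06, and 0.07 without PBS replicates 1 and 2. The interferon-induced Isg15 was at 95.8, 102 and 123 CPM against 91.0, 91.9 and 93.0 (log2 0.20 ± 0.11, interval −0.03 to 0.43), and Irf7 was at 0.15 ± 0.07 (adjusted p = 0.347). Myd88, the adaptor of Toll-like receptors, was at 0.35 ± 0.16 (adjusted p = 0.323), and at −0.07 without PBS replicates 1 and 2. Tlr9, the endosomal sensor of CpG DNA, had no count in either group, Tlr7 had 5 in each, and Tmem173 (STING) 2 and 1, so changes in them were not detectable at this depth. Of 28 acute phase and inflammation genes Cxcl16 passed. At an unadjusted p under 0.05, 6 were higher and 5 lower, where 14.7% of all genes reached it in either direction. The median of these 28 was 0.05, and −0.03 without PBS replicates 1 and 2. The chemokine gene Cxcl1 was at 0.84 ± 0.22 (adjusted p = 0.0759) and the acute phase gene Orm2 at −0.33 ± 0.08 (adjusted p = 0.0778). Il1b had no count.

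Of 24 genes for proteins that bind modified oligonucleotides or form paraspeckles, 0 passed. At an unadjusted p under 0.05, 6 were higher and 0 lower, to be read against 14.7% of all genes in either direction. The list median was 0.07, and −0.02 without PBS replicates 1 and 2. Neat1, the RNA scaffold of paraspeckles, had the largest difference in that list, 1.30 ± 0.37 (adjusted p = 0.105). Its CPM was 667, 1269 and 1050 against 266, 689 and 261, so that PBS replicate 2 overlapped the treated libraries, and the 12 other treated libraries spread from 420 to 1995 CPM. Of 17 RNA interference genes, 0 passed, and Eif2c2, the slicing Argonaute, was at −0.27 ± 0.14 (adjusted p = 0.361). Of 23 p53 targets, 0 passed, and Cdkn1a was at −0.54 ± 0.16 (adjusted p = 0.114). Of 25 oxidative stress and heat shock genes, Hmox1 fell, and the metallothionein gene Mt2 was at −0.38 ± 0.10 (adjusted p = 0.0778). Of 12 thyroid hormone handling genes tested Serpina7 rose, and 0 of 26 cholesterol and fatty acid synthesis genes, 0 of 12 cell cycle genes and 0 of 7 mitochondrially encoded mRNAs passed. Other mitochondrial mRNAs, such as mt-Co2 and mt-Atp6, had no count in either group. How reads that map to several places or overlapping genes were counted is not given, so a count of 0, here or in other genes, need not mean that the RNA is missing.

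**Figure D4:**
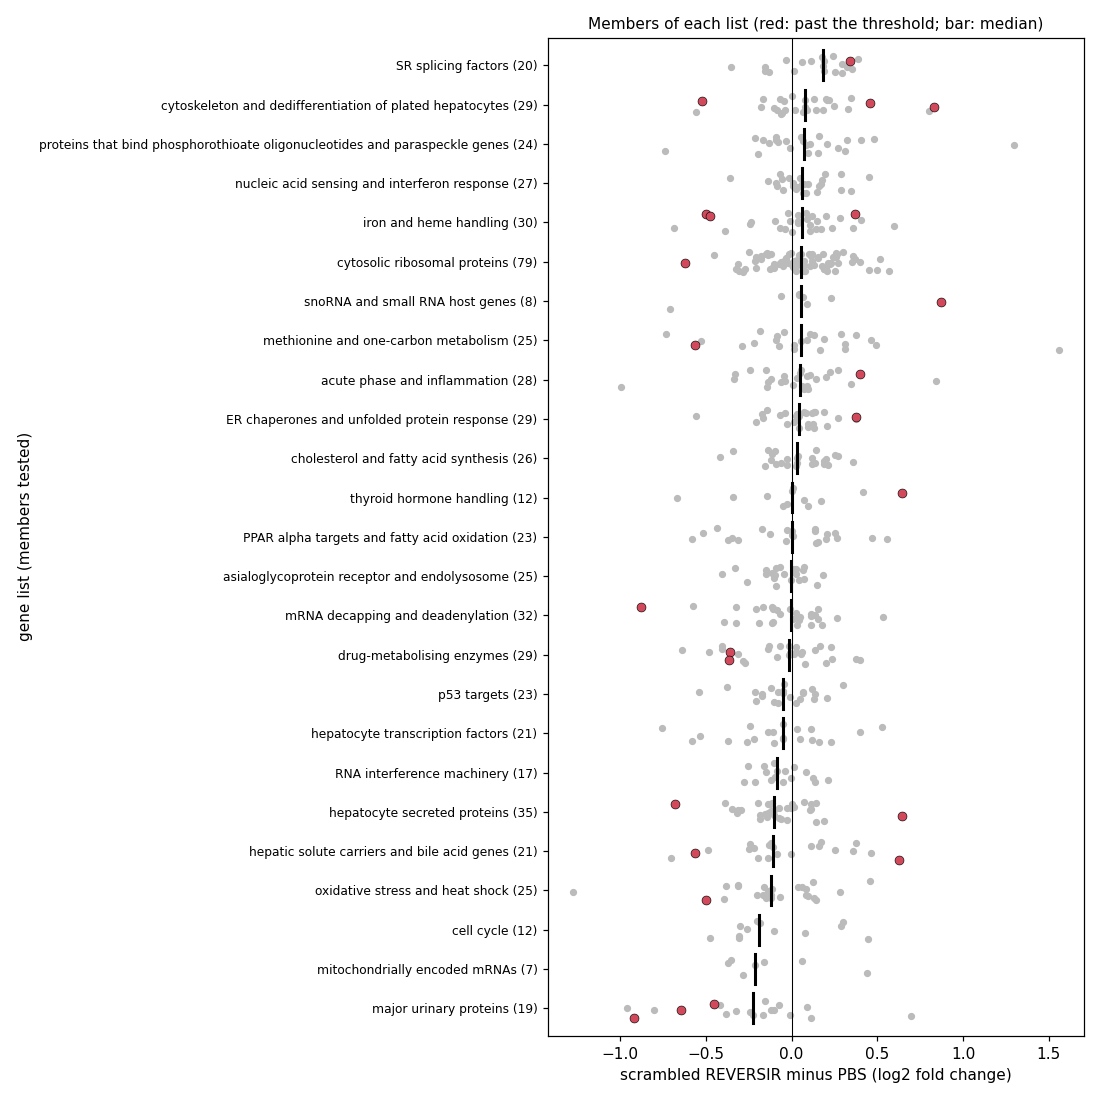
Log2 fold change of scrambled REVERSIR minus PBS (horizontal axis) for every tested member of the 25 lists (vertical axis, number of members tested in brackets). Red points passed an adjusted p of 0.05, grey points did not, and the black bar is the list median; medians run from −0.22 for major urinary proteins to 0.19 for SR splicing factors, with at most 3 members past the threshold in any list.

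The scrambled REVERSIR was also given with the siRNA, and that comparison, siRNA with scrambled REVERSIR against siRNA, shares no library with scrambled REVERSIR against PBS. No gene passed there (0% of 11153 genes by edgeR, and 0 by DESeq2). At an unadjusted p under 0.05 in edgeR there were 415 genes, where 558 would be reached by chance if no gene differed. Of the 47 genes, 18 had the same sign in both comparisons, 3 of the 13 that rose and 15 of the 34 that fell. The share of same signs over all genes was not counted. The Pearson correlation of the 2 differences was −0.40 over the 47 genes and −0.06 over all genes tested. With the siRNA, 6 of the 47 (12.8%) were at an unadjusted p under 0.05 in edgeR, in either direction. The median size of the 47 was 0.05 with the siRNA, against 0.08 over all genes in that comparison. Mia2, Hspa5 and Srsf1 were at 0.03 ± 0.07, −0.03 ± 0.08 and 0.09 ± 0.07, Gnmt and Wrnip1 at 0.01 ± 0.09 and −0.04 ± 0.09, and Rprd1a at −0.44 ± 0.16 with the siRNA. The difference between the effect without and with the siRNA was tested by an interaction term and passed for 2 genes (0.0179%), Serpina7 and Tagln2.

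Serpina7 was at 202, 229 and 262 CPM with siRNA and at 164, 168 and 207 CPM with siRNA and scrambled REVERSIR, a difference of −0.37 ± 0.10 (unadjusted p = 0.00143 in edgeR, and adjusted p = 1). This difference did not pass, and the libraries overlapped, with 207 CPM in one given both agents and 202 CPM in one given the siRNA. The effects differed by 1.02 ± 0.15 (adjusted p = 0.00583), and by 0.94 with PBS replicate 3 as the only control (adjusted p = 0.664). Leaving out PBS replicate 2 gave 0 genes for this interaction and a value of 0.96 for Serpina7 (adjusted p = 0.0502), and leaving out PBS replicate 3 gave 381 genes. Leaving out PBS replicate 1, siRNA replicate 3, scrambled REVERSIR replicate 2 or 3, or siRNA + scrambled REVERSIR replicate 2 gave 1 gene, while 5 genes passed without siRNA replicate 1 or 2 and 9 without scrambled REVERSIR replicate 1. Tagln2 was at 254, 260 and 264 CPM with siRNA and 231, 213 and 226 CPM with both agents, and its effects differed by 0.68 ± 0.12 (adjusted p = 0.0325). That difference was 0.41 (adjusted p = 0.999) with PBS replicate 3 as the only control.

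**Figure D5:**
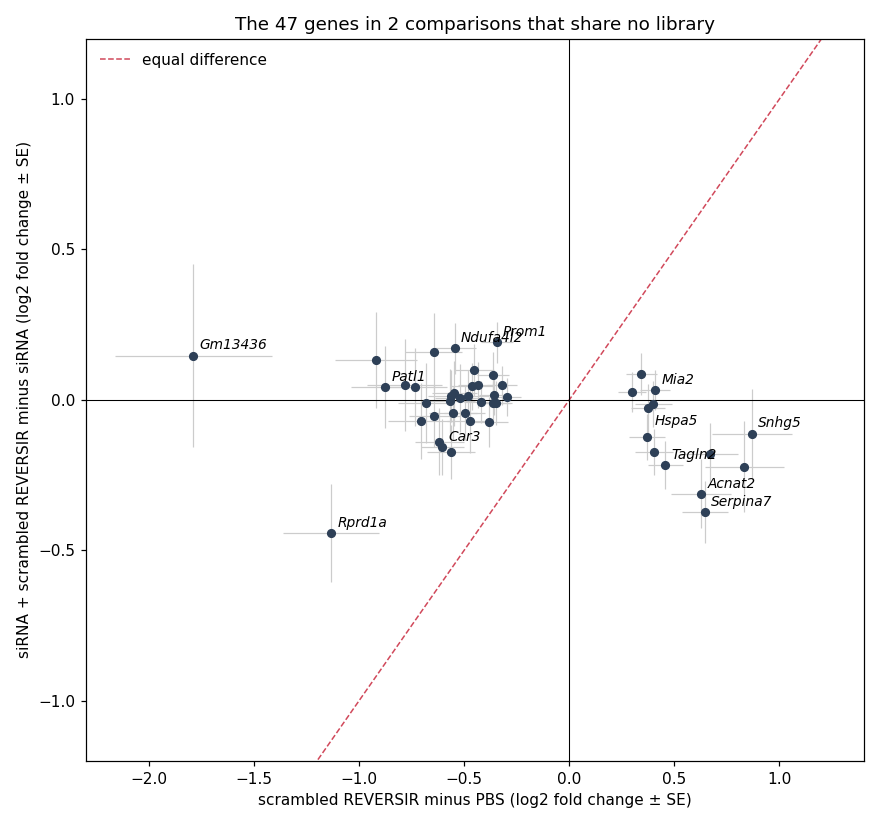
Log2 fold change ± SE of the 47 genes for scrambled REVERSIR minus PBS (horizontal) and for siRNA + scrambled REVERSIR minus siRNA (vertical), with a dashed line where both would be equal. Most points lie near 0 on the vertical axis, Serpina7 lies at 0.65 and −0.37, and Rprd1a at −1.13 and −0.44.

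Scrambled REVERSIR was compared with the TTR REVERSIR, an oligonucleotide of another sequence, so that the difference itself holds no PBS library. The PBS libraries still entered the scaling and the estimate of spread of the fit. Doses are not given, so that equal doses cannot be stated. Here 2 genes passed (0.0179%), both higher with the scrambled REVERSIR. Serpina7 was at 162, 207 and 156 CPM with TTR REVERSIR (log2 0.66 ± 0.11, adjusted p = 0.0193). Aldh1a1, a retinaldehyde dehydrogenase that makes retinoic acid, was at 198, 229 and 218 CPM with scrambled REVERSIR, 147, 139 and 132 with TTR REVERSIR and 175, 145 and 178 with PBS (log2 0.63 ± 0.10, adjusted p = 0.0193). The scrambled REVERSIR and TTR REVERSIR libraries did not overlap for either gene. Leaving out scrambled REVERSIR replicate 2 or 3, or TTR REVERSIR replicate 1 or 3, gave 0 genes, and leaving out TTR REVERSIR replicate 2 gave 5. Mia2, Hspa5, Srsf1 and Tfrc were at 0.27, 0.21, 0.31 and 0.32 in this comparison and Ndufa4l2, Wrnip1, Ppif and Smox at −0.37, −0.52, −0.40 and −0.38, with adjusted p from 0.219 to 0.571.

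Against the mean of the 4 other treated groups, a comparison chosen after seeing the data, 2 genes passed (0.0179%). One was Ttr, the target of the siRNA, which all reference groups but TTR REVERSIR alone received. The other was Serpina7, at 0.55 ± 0.08 (adjusted p = 0.00565). Leaving out scrambled REVERSIR replicate 2 or 3 left 1 gene and put Serpina7 at adjusted p = 0.164 and 0.153, leaving out scrambled REVERSIR replicate 1 gave 9 genes, and leaving out TTR REVERSIR replicate 2 or siRNA + TTR REVERSIR replicate 1 gave 4. PBS set against the same 4 groups gave 797 genes (7.15%), 485 higher and 312 lower in PBS. This count depended on the 2 controls that stood apart. It was 2 without PBS replicate 1, 24 without PBS replicate 2 and 1 with the mitochondrial rRNA share as a covariate. Without PBS replicate 3 it was higher than 797.

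The authors' deposited table for scrambled REVERSIR against PBS held 18218 genes, of which 212 were at an adjusted p under 0.05, 91 higher and 121 lower. It shared 41 genes with the 47 called here, 87.2% of the latter and 19.3% of the 212, and all 47 had the same sign. In the authors' deposited table Serpina7 had a log2 fold change of 0.51 and Mia2 of 0.37, both at an adjusted p of 9.69e-05. Both analyses use the same counts.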

How the data were processed

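Counts per gene, 37991 Ensembl identifiers in each of 18 libraries, were used as deposited by the authors. STAR, DESeq2 and the build NCBIM37 are named, without versions, per the submitters' processing notes. The counting tool, its strand setting and filters are not given in the sources used. The authors' deposited DESeq2 table for scrambled REVERSIR gave a log2 fold change and standard error (largest 0.11, so the values look shrunken), a mean signal after size factors, a Wald score and a p-value per gene. Symbols came from the annotation of that build for 37205 identifiers and from the deposited table for 49.

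Groups and replicate numbers followed the titles, although 1 siRNA + scrambled REVERSIR library, replicate 2, has another number in its file's name. Genes were kept by filterByExpr (11153) and fitted over all 18 libraries with edgeR 4.0.16 (R 4.3.3) by quasi-likelihood after TMM, with group as the only term and 12 residual degrees of freedom. P-values were adjusted over the 11153 genes. CPM used effective library sizes. Members and 31 gene lists were chosen with earlier results of these data known. Every gene past 0.05 is named, with each library's values for the 12 of smallest p, and at most 2 other genes per list by p, beyond which Asgr1 and Isg15 were chosen for their role after their values were seen, as were single further values. Same-numbered PBS and scrambled REVERSIR libraries did not deviate together, so numbers were not taken as pairs. Alternatives were other scaling, filters, groups, covariates, left-out libraries and DESeq2 1.42.0, with thinning and 2 comparisons added after seeing the data. The code was tested on simulated data.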

Additional observations from a re-analysis of the deposited data

Results flagged for a closer look

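The effect of the scrambled REVERSIR differed with the presence of the siRNA for Serpina7 and Tagln2, by the interaction term of the edgeR fit over all libraries. The difference of the log2 fold changes was 1.02 for Serpina7 (adjusted p = 0.00583) and 0.68 for Tagln2 (adjusted p = 0.0325). Neither gene passed with the mitochondrial rRNA share as a covariate or without PBS replicate 2, where the interaction gave 0 genes. For Serpina7, siRNA replicates ranged from 202 to 262 CPM and lay above the PBS libraries, so the 2 reference groups differ as well as the 2 groups given the oligonucleotide. For Tagln2, PBS replicates 1 and 2 (168 and 159 CPM) were the lowest of all 18 libraries.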

How the results depend on the processing

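For scrambled REVERSIR against PBS, 47 genes became 1580 with library totals alone, 424 with no filter on low counts, 7 when the compared groups were fitted alone, 0 with the mitochondrial rRNA covariate, 0 without PBS replicates 1 and 2, 7 with all libraries thinned to the smallest total and 188 with DESeq2. Leaving out single libraries gave 0 to 745. Of the 7 genes with the compared groups fitted alone, 3 were among the 47. With the siRNA present, 0 became 33 with no filter. The interaction, 2 genes, became 214 with no filter, 1 with the compared groups alone, 4 with the replicate block, 0 with the covariate, 0 without PBS replicates 1 and 2, 1 when thinned and 33 with DESeq2, and 0 to 381 on leaving out single libraries. Scrambled against TTR REVERSIR, 2 genes, became 0 with library totals, 42 with no filter and 4 with the compared groups alone, and 0 to 5 on leaving out single libraries. Against the 4 other treated groups, 2 became 1 with library totals, 68 with no filter, 6 with the covariate and 25 with DESeq2, and 1 to 9 on leaving out single libraries. Where fewer libraries or counts enter, less is estimated; otherwise the cause was not tested.

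Replicate numbers gave correlations of −0.10, 0.07 and −0.08 between same-numbered PBS and scrambled REVERSIR libraries, and 0.086, 0.15 and 0.079 between same-numbered siRNA and siRNA + scrambled REVERSIR libraries, each of which correlated best with its own number, a hint from the data and not the design. The replicate block gave 52 genes, 41 of them among the 47. Ttr ran from 97.2% to 106% of PBS on leaving out single libraries, being below 100% without PBS replicate 1 (97.2%) or 2 (99.2%) or scrambled REVERSIR replicate 1 (99.8%) or 3 (98.9%). Signs turned for genes that had not passed. With the covariate Rab7 was at 0.11, Myd88 at −0.016, Pdia3 at 0.12 and Foxo1 at 0.039. Without PBS replicates 1 and 2 Rab7 was at 0.018, Myd88 at −0.071, Trf at 0.10, Snhg4 at −0.026 and mt-Co1 at 0.071. With library totals, which put the median of all genes at 0.29, so that these genes remained below it, Slco1a1 was at 0.073, Mup3 at 0.053, Mup20 at 0.068 and mt-Co1 at 0.025. Snhg4 ran from −0.18 without scrambled REVERSIR replicate 2 to 0.44 without PBS replicate 2, and was at −0.071 without PBS replicate 1. The low depth of the scrambled REVERSIR libraries limits what can be seen in genes of few counts.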
